A study of Saccharomyces cerevisiae with 159 samples.

Results

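Expression was followed for 30 pairs of duplicated genes that encode proteins of the large ribosomal subunit of the budding yeast Saccharomyces cerevisiae. The pairs were RPL1, RPL2, RPL4, RPL6 to RPL9, RPL11 to RPL24, RPL26, RPL27, RPL31, RPL33 to RPL37 and RPL42, each with an A copy and a B copy, and they were chosen by name. They hold 60 of the 6685 nuclear open reading frames of the deposited table and 30 of its 61 pairs of A and B symbols. The 31 other pairs were 24 pairs for small-subunit proteins, RPL40, RPL41, RPL43, RPP1, RPP2, COX5 and NHP6. The deposited values were log2(TPM + 1), where TPM is transcripts per 1000000 transcripts, and levels below are TPM after the nuclear frames outside the ribosomal DNA were rescaled to a total of 1000000. For each pair, the total is the level of A plus that of B, the ratio is A over B on the log2 scale, and the A share is A as a percentage of the total. All 60 copies passed the filter on low values in each of the 4 experiments that had replicates.

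The libraries came from W303 strains in 8 experiments that asked how gene expression changes when cells stay arrested or stop dividing. In 3 experiments, WT cells and cells carrying a temperature-sensitive cell cycle allele were shifted to 37 °C, and libraries were made 2 to 9 h later: cdc28-13, which blocks entry into the cycle (26 libraries, 3 per group except for 1 cdc28-13 library at 4 and at 6 h), cdc20-1, which blocks cells in metaphase (9 libraries, 1 per group), and cdc15-2, which blocks cells in anaphase (10 libraries, 1 per group). Haploid bar1 cells, which cannot degrade the pheromone, received alpha factor or DMSO at 30 °C (12 libraries, 1 per group), and haploid and diploid-labelled WT cells grew into stationary phase (23 libraries) or were given rapamycin (24 libraries) at 30 °C, mostly with 2 per group. The labels give 5 nM rapamycin for both strains, whereas the study's supplement gives a lower dose for the diploid, so strain and dose cannot be told apart in that experiment. Auxotrophic cdc28-13 cells were compared with prototrophic cdc28-13 cells, which also carry a 4xSTRE-GFP reporter, both at 37 °C and, unlike in the other arrests, synchronised with alpha factor beforehand (8 libraries, 1 per group). In the Bcy1 experiment (47 libraries, 2 per group except for 1 at WT 2 h), WT, cdc28-13, cdc20-1 and cdc15-2 cells at 37 °C were compared with strains of the same 4 backgrounds in which BCY1, expressed from the RFA1 promoter with a 9Myc-AID* tag, could be degraded through osTIR by 500 µM auxin. The strain without the tag is called the parent below, but by the study's strain list the strains also differ in markers. The AID-BCY1 strains carry LEU2 with osTIR. The cdc15-2 strain is listed with ade1 and no his3, its AID-BCY1 strain with ade2 and his3. The part of these markers was not tested. By their labels, parents and AID-BCY1 strains alike had auxin in the libraries at 4 and 6 h, from 2 h on, and none in those at 2 h. Each strain is a single isolate, and the labels do not say whether replicates are separate cultures, so p-values measure the spread between libraries, which may be technical.

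Ribosomal protein genes are among the most highly transcribed genes of a growing yeast cell. They are switched on together by Rap1, Fhl1 and Ifh1 under the control of the TORC1 and protein kinase A pathways, and they are switched off together when growth slows or stress sets in. Bcy1 is the inhibitory subunit of protein kinase A, so its loss leaves the kinase active. Most of the A and B pairs are remnants of an ancient duplication of the whole genome; the 2 proteins of a pair are nearly identical, and either copy can usually supply the subunit, while the promoters, introns and untranslated regions of the copies have diverged.

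Several facts of the libraries touch the values below. The values are TPM without read counts, so how deeply a library was sequenced was not established, and counting intervals are not given. Open reading frames that lie in the ribosomal DNA made up 63.8 to 87.5% of the TPM of all nuclear open reading frames in the cdc28-13, stationary phase and rapamycin experiments, whose RNA was not enriched for mRNA, and at most 21% elsewhere. The deposited TPM of a library summed to between 625303 and 1047827. Mating-type genes went against some labels. In the Bcy1 experiment the libraries labelled WT, which should be MATa, and those labelled WT_AID-BCY1 and cdc15-2_AID-BCY1 expressed alpha-specific genes at a summed level of 866 to 4142 TPM and a-specific genes, BAR1 left out, at 15.8 to 63.4 TPM, the pattern of MATalpha cells. The cdc20-1 libraries were of MATalpha type as labelled and the other 4 strains of MATa type, so that mating type and arrest cannot be told apart in 2 of the 3 arrest comparisons there. In the separate cdc20-1 experiment the a-specific sum was 821 to 1158 TPM in WT and 48.2 to 132 TPM in cdc20-1. The alpha-specific sum was 36.5 to 38.2 TPM in WT and 1333 to 2058 TPM in cdc20-1. Mating type and arrest cannot be told apart in that experiment either. Libraries labelled diploid expressed 8 of 8 haploid-specific genes. BCY1 mRNA was at a median of 103 to 165 TPM in the 4 AID-BCY1 strains and 218 to 379 TPM in their parents. All values are shares of an RNA pool, and fewer cells with a transcript cannot be told apart from less transcript per cell.

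The copies of a pair are hard to tell apart by reads, which bears on each A share below. Coding identity ranged from 78.9% for RPL22 to 99.4% for RPL1 with a median of 93.5% over the 30 pairs, in the RefSeq sequence of the sacCer3 reference strain. The upstream processing divided reads that match both copies between them by an estimate, so the total of a pair is better determined than the split. The following coding stretches of 90 bases are shown because the ratios of RPL9, RPL15 and RPL8 carry the main results, and RPL1 because it is the hardest pair to separate; capitals mark the bases that differ between the copies. RPL9 sits near the base of the stalk that binds translation factors, RPL15 and RPL8 join the subunit early in its assembly, and RPL1 forms the mobile stalk beside the exit site for tRNA. The 3 stretches of the first pairs differ at 11 bases each and the RPL1 stretch at 2, and over the whole coding sequence RPL9 differs at 36 of 576 bases, RPL15 at 42 of 615, RPL8 at 38 of 771 and RPL1 at 4 of 654.
RPL9A (chrVII:227757-227846, minus strand): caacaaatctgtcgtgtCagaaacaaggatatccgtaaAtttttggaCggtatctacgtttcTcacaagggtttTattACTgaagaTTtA
RPL9B (chrXIV:500164-500253, plus strand): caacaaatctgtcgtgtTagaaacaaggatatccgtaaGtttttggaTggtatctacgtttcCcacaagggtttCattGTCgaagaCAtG
RPL15A (chrXII:202117-202206, minus strand): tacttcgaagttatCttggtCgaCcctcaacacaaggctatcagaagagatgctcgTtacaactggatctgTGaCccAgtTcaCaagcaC
RPL15B (chrXIII:509875-509964, minus strand): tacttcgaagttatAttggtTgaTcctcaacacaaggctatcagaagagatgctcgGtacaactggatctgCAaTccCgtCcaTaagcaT
RPL8A (chrVIII:35528-35617, minus strand): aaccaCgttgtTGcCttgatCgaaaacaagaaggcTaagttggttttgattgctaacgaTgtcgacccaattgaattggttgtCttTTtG
RPL8B (chrXII:48132-48221, minus strand): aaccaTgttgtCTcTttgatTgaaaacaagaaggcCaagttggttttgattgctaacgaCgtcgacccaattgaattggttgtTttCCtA
RPL1A (chrXVI:135790-135879, plus strand): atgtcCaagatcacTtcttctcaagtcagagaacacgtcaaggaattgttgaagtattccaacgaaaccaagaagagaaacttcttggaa
RPL1B (chrVII:254641-254730, plus strand): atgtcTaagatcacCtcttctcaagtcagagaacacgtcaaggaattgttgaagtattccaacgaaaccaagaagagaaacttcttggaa

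Both copies of 22 pairs carry an intron in the RefSeq annotation, with 2 introns in RPL7A and RPL7B, and both copies of RPL1, RPL4, RPL8, RPL9, RPL11, RPL12, RPL15 and RPL24 carry none. In the 300 bases before the start codon, searched on both strands, the letters of a Rap1 motif, CACCC, any 2 bases and ACA, were found in 6 of the 60 members, RPL7A, RPL8A, RPL13A, RPL22B, RPL35B and RPL36A, each time in 1 copy of its pair, and in 1.15% of the 6002 promoters searched. The stretches of 40 bases around the matches are shown because they are a sequence difference between copies upstream of genes whose expression is compared here; capitals mark the match, which lies on the other strand at RPL13A.
RPL7A (chrVII:366224-366263, minus strand): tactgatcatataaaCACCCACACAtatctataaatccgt
RPL8A (chrVIII:36241-36280, minus strand): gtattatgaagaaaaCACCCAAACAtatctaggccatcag
RPL13A (chrIV:308128-308167, plus strand): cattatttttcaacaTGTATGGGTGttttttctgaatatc
RPL22B (chrVI:65154-65193, minus strand): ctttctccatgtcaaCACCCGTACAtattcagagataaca
RPL35B (chrIV:217405-217444, plus strand): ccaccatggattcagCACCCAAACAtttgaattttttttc
RPL36A (chrXIII:650967-651006, plus strand): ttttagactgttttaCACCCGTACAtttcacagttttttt
The letters of an Abf1 motif, TCA, any 6 bases and ACG, were found in 6 of 60 members and 15.0% of all promoters, the stress response element AGGGG in 9 of 60 and 22.2%, and the PAC letters GCGATGAG in 1 of 60 and 4.05%. The motifs were searched separately, and a match is not a measured site.

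In growing cells of the Bcy1 experiment the pairs were similar in total and unlike in split. In the 5 libraries labelled WT of the Bcy1 experiment, the 30 pairs together took 9.37 to 11.6% of the rescaled total, and the median total of a pair ranged from 2159 TPM for RPL22, a protein that the cell can do without, to 4737 TPM for RPL24, which reaches across to the small subunit. The A share had a median of 23.9% for RPL36 and 24.0% for RPL8 at one end and of 92.1% for RPL22 and 98.1% for RPL15 at the other. It was above 50% in all 5 libraries for 15 pairs and below 50% in all 5 for 10, and the median of 19 pairs lay between 35 and 65%. RPL15B, at a median of 49.1 TPM beside 2558 TPM for RPL15A, was the lowest copy, followed by RPL22B at 197 TPM and RPL18B at 344 TPM. The median A share was 73.1% for RPL9, 80.3% for RPL7 and 61.4% for RPL11. Some splits differed between experiments. The A share of RPL36 was 48.8 to 62.2% in WT of the cdc20-1 experiment and 50.8 to 59.1% in WT of the cdc15-2 experiment. RPL33, at a median of 65.4% in the Bcy1 experiment, was there at 38.7 to 48.9% and 46.3 to 54.4%. RPL8 stayed near its share above, at 22.9 to 27.2% and 25.3 to 28.4%.

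The total of a pair varied less between replicates than its copies did in the 3 experiments without mRNA enrichment. Within groups the SD of a copy had a median of 0.32, 0.51 and 0.61 on the log2 scale in the cdc28-13, stationary phase and rapamycin experiments, against 0.21, 0.23 and 0.34 for the pair total and 0.21, 0.26 and 0.35 for the 11 large-subunit genes with no duplicate, such as RPL3 and RPL25. In the Bcy1 experiment the 3 medians were 0.20, 0.17 and 0.20. The ratio had a median SD of 0.63, 1.23 and 1.22 in the first 3 experiments and of 0.17 in the Bcy1 experiment. Deviations of A and B from their group means were negatively correlated in 16, 23 and 17 of 30 pairs in the first 3 and in 2 of 30 in the last. Of the 60 copies, 30 were listed at 0 in at least 1 library, in each case among the 73 libraries of the experiments without enrichment, led by RPL36B in 33 libraries, RPL18B in 13 and RPL22B and RPL33A in 12 each; the other 30 copies were never at 0. Some low values were also identical between the copies: after 2 h of rapamycin, RPL27A and RPL27B were each listed at 25.1 TPM in one haploid library and at 23.6 TPM in the other. RPL13A and RPL13B were each at 32.9 TPM in the first of these libraries and at 92.7 TPM in the second. Totals and ratios at such levels may rest on few reads, which was not tested. The experiments without enrichment also held the high shares of ribosomal DNA frames, with the highest in the cdc28-13 experiment. RPL36B was at 0 in 4 libraries of the cdc28-13 experiment and in 11 and 18 of the stationary phase and rapamycin experiments. These experiments also differ in how many of their libraries are of growing cells. The part of these frames in the zeros was not tested. Across the 30 pairs the ratio SD of the Bcy1 experiment had a Pearson r of -0.52 (Spearman rho -0.39) with the level of the lower copy in WT and of -0.0046 (0.15) with coding identity, over pairs that share the same libraries.

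**Figure D1:**
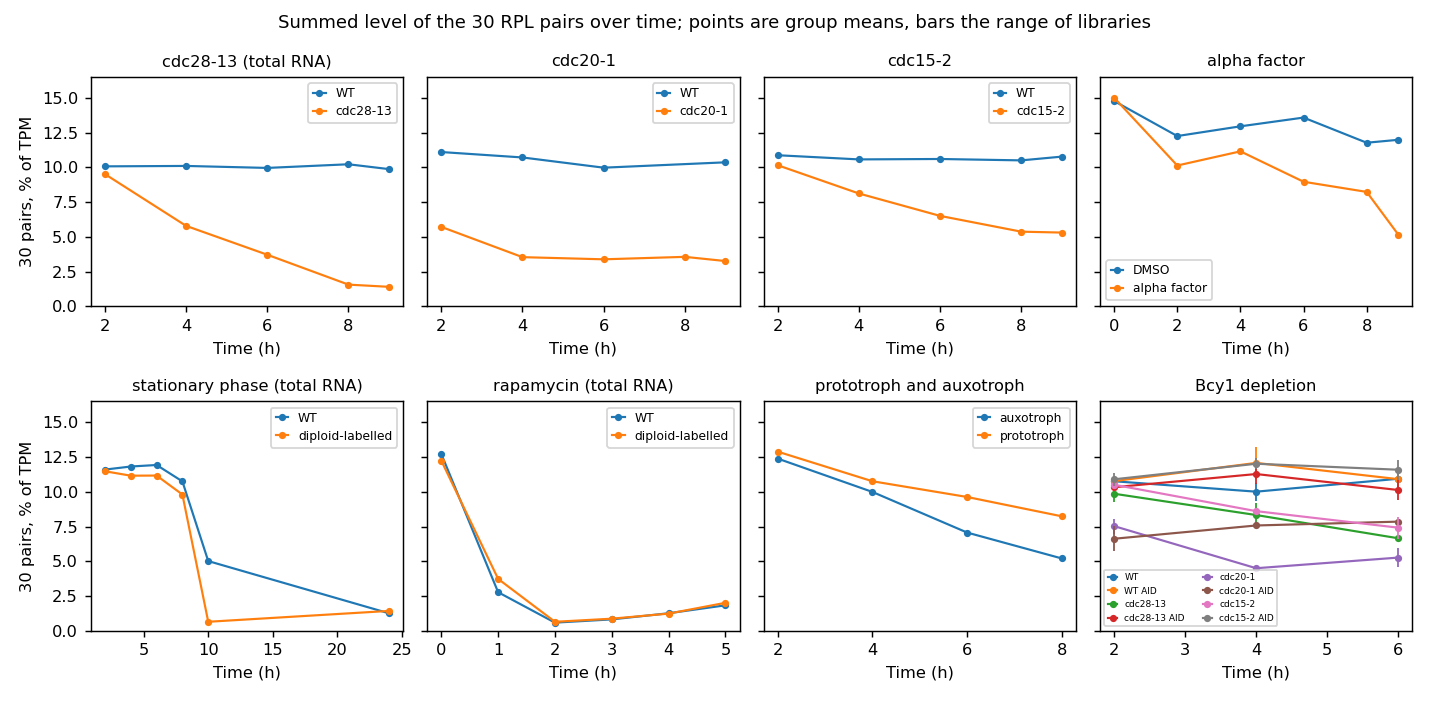
Summed level of the 30 pairs as a percentage of the rescaled TPM (y axis) against time in hours (x axis) in each of the 8 experiments; points are group means, bars run from the lowest to the highest library, and groups without a visible bar hold 1 library or libraries close together. The libraries labelled WT in the Bcy1 experiment stay between 9.37 and 11.6%, and rapamycin gives the lowest point at 0.587%.

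The sum of the 30 pairs was steady in WT cultures at 37 °C and lower at the last time than at the first in each of the 3 temperature-sensitive arrests, with alpha factor, in stationary phase and with rapamycin. At 37 °C it was 9.88 to 10.2% on average in the WT groups of the cdc28-13 experiment, whereas after 2, 4, 6, 8 and 9 h of the cdc28-13 arrest it was 9.52, 5.80, 3.72, 1.57 and 1.41%. The single libraries of cdc20-1 were already down to 5.72% after 2 h and ended at 3.27%, while those of cdc15-2 went from 10.2% to 5.32% between 2 and 9 h. From 0 to 9 h, alpha factor took the sum from 15.0% to 5.17% and DMSO from 14.8% to 12.0%. After 2, 8, 10 and 24 h on the way into stationary phase, haploid cells stood at 11.6, 10.8, 5.02 and 1.26% and diploid-labelled cells at 11.5, 9.81, 0.649 and 1.43%, so that the lowest point came at 10 h in the second strain. After 0, 1, 2 and 5 h of rapamycin the sum was 12.7, 2.77, 0.587 and 1.83% in haploid cells and 12.2, 3.73, 0.647 and 2.01% in diploid-labelled cells, lowest at 2 h in both. At 2 h at 37 °C 0 of the 30 totals passed the test between cdc28-13 and WT (limma, adjusted p under 0.05), with a median log2 difference of -0.09, beside 0.623% of genes called lower and 0.511% called higher, and 0 of 30 ratios passed, beside 0.0% of the other pairs' ratios. At an unadjusted p under 0.05 the counts were 0 totals and 1 ratio.

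**Figure D2:**
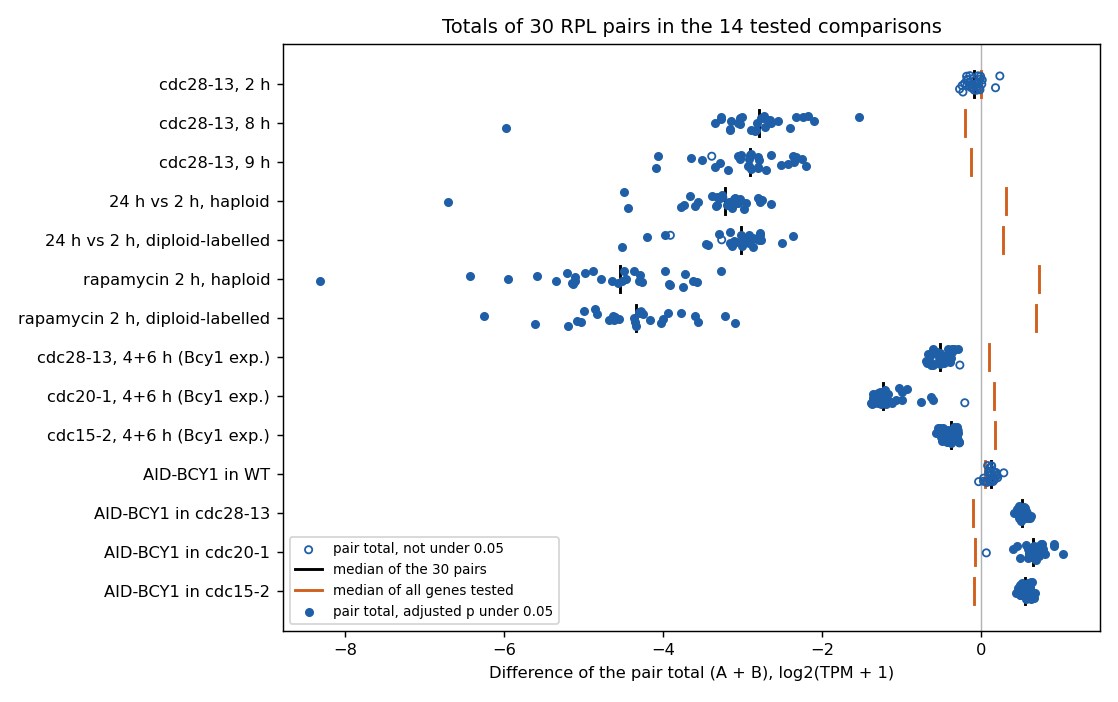
Log2 difference of the total of each of the 30 pairs (points; filled where adjusted p is under 0.05) in the 14 comparisons with replicates, with the median of the pairs (black) and of all genes tested (orange). The totals have a median of -0.09 at 2 h, and they lie between -5.97 and -1.54 in cdc28-13 at 8 h, and on the positive side when AID-BCY1 is present in the 3 arrested backgrounds.

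After 8 h of the cdc28-13 arrest all 30 totals were lower than in WT, and after 9 h 29 of 30 were, with medians of -2.79 (6.92-fold) and -2.9 (7.48-fold) on the log2 scale, n = 3 against 3. Over all genes the medians were -0.20 and -0.12, and 21.8% and 19.1% of genes were called lower. At 8 h the totals that moved most were RPL33 (-5.97 ± 1.31, SE), RPL42 (-3.35 ± 0.15), a protein of the exit site for tRNA, and RPL21 (-3.27 ± 0.17), and those that moved least were RPL37 (-2.18 ± 0.16), RPL4 (-2.10 ± 0.10), whose loop lines the exit tunnel, and RPL36 (-1.54 ± 0.59). RPL33 and RPL36 hold values at 0: RPL33A was at 206, 0 and 0 TPM and RPL33B at 329.9, 0 and 163 TPM in the 3 arrested libraries, beside 1192 to 1793 and 1210 to 1701 TPM in WT. At 9 h the order was led by RPL36 (-4.08 ± 0.59), RPL22 (-4.06 ± 0.37) and RPL6 (-3.65 ± 0.18) and closed by RPL27 (-2.32 ± 0.16), RPL4 (-2.26 ± 0.10) and RPL8 (-2.2 ± 0.12), and RPL33 missed the threshold (-3.39, adjusted p = 0.0506). RPL4 was among the 3 least changed pairs at both times, with a total of 619 to 750 TPM per library at 8 h and 600.0 to 648 TPM at 9 h.

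The copies of the pairs taken as fixed examples show how far the total holds for each gene. RPL22A was at 101, 287 and 73.1 TPM in the 3 arrested libraries at 9 h against 2059, 2398 and 1456 TPM in WT, and RPL22B at 0, 40.6 and 0 against 428, 195 and 325 TPM. RPL36A, which helps to build the subunit around the 5.8S rRNA, was at 157, 56.4 and 149.5 TPM against 930, 802 and 808 TPM, and RPL36B was listed at 0 in all 3 arrested libraries against 1283, 358 and 1787 TPM. RPL1A was at 196, 253 and 0 TPM against 1266, 1206 and 1365 TPM, and RPL1B at 393, 337 and 271 TPM against 2352, 2140 and 2035 TPM. In all 6 of these copies the arrested libraries lay below the WT libraries. The share of all genes with libraries apart is not given for this comparison, so that count is not read as a result. The 19.1% of all genes called lower at this time is another measure. RPL4A was at 458, 231 and 385 TPM against 1221, 1398 and 1609 TPM and RPL4B at 191, 369.5 and 216 TPM against 1760, 1544 and 1309 TPM, so that the copy with more RNA changed from library to library within the arrest. RPL7A, a core protein of the subunit, was at 359, 241 and 132 TPM against 2044, 2010 and 2023 TPM, and RPL7B at 119.5, 0 and 108 TPM against 572, 538 and 415 TPM.

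The A to B ratio changed in 9 of 30 pairs at 8 h (3 lower, 6 higher) and in 11 of 30 at 9 h (4 lower, 7 higher), beside 25.8% and 22.6% of the ratios of the 31 other pairs. RPL9 moved furthest at 8 h among pairs with no value at 0, by -2.82 ± 0.45 (adjusted p = 4.8e-05). RPL9A (YGL147C, chromosome VII) was at 96.7, 114 and 72.3 TPM in the arrested libraries against 2035, 1910 and 2112 TPM in WT, and RPL9B (YNL067W, chromosome XIV) at 276, 341 and 360 TPM against 1024, 935 and 1001 TPM. Both copies were low in the arrest with no overlap, and A, the major copy of growing cells, became the minor one: the A share was 22.6 ± 5.1% (SD) against 67.2 ± 0.66%. RPL9 again had the lower ratio at 9 h (-2.12 ± 0.45, adjusted p = 0.00093; both copies were listed at 87.4 TPM in 1 of the 3 arrested libraries), and it stayed past the threshold without any one of the 6 libraries at either time. RPL23, a protein of the face that meets the small subunit, went the same way at 8 h (-1.75 ± 0.26), and RPL6 (1.68 ± 0.51), RPL4 (1.54 ± 0.55), RPL26 (1.31 ± 0.40) and RPL31 (1.27 ± 0.27), RPL26 and RPL31 being proteins of the tunnel exit, went toward A. The call was lost for RPL4 without any one of 4 of the 6 libraries (0.61 to 2.14) and for RPL6 and RPL26 without 1 of the 6.

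At 9 h the largest ratio differences rested on values at 0. The 6.94 of RPL36 comes from RPL36B at 0 in all 3 arrested libraries and is no fold change, and RPL14 (-3.27 ± 1.17) holds 1 value at 0. Of the pairs with no 0, RPL8 moved by 1.68 ± 0.22 (adjusted p = 4e-06), RPL31 by 1.15 ± 0.27 and RPL27 by 1.05 ± 0.16. RPL8A (YHL033C) was at 365, 326 and 332 TPM against 864, 798 and 782 TPM, and RPL8B (YLL045C) at 205, 267 and 286 TPM against 1872, 1844 and 2063 TPM. Here B lost most, and the A share was 57.6 ± 5.6% in the arrest and 29.8 ± 2.1% in WT. RPL14 kept its call in 2 of the 6 fits with a library left out, and 8 of the 11 changed ratios had no value at 0.

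Entry into stationary phase lowered 29 of the 30 totals in haploid cells and 28 of 30 in diploid-labelled cells between 2 and 24 h (n = 2 against 2), with medians of -3.22 (9.31-fold) and -3.02 (8.09-fold), whereas the median gene was at 0.32 and 0.28, and 10.3% and 9.55% of genes were called lower. In haploid cells RPL36 (-6.71 ± 1.65, with values at 0), RPL22 (-4.49 ± 0.38) and RPL9 (-4.44 ± 0.34) moved most and RPL42 (-2.78 ± 0.24), RPL20 (-2.76 ± 0.19) and RPL19 (-2.64 ± 0.14) least, and RPL33 missed the threshold (-3.25, adjusted p = 0.195). In diploid-labelled cells RPL9 (-4.52 ± 0.34), RPL22 (-4.20 ± 0.38) and RPL18 (-3.98 ± 0.24) moved most and RPL26 (-2.77 ± 0.20), RPL35 (-2.51 ± 0.22) and RPL4 (-2.36 ± 0.16) least, and RPL33 (-3.26) and RPL36 (-3.91), both with values at 0, did not pass. A difference of the change between the strains passed for 0 of 30 totals and 0 of 30 ratios (limma interaction; 2 totals and 1 ratio at an unadjusted p under 0.05), beside 0.181% of genes higher and 0.0986% lower.

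The ratio test had little power in these groups, with a median SE of 1.11 on the log2 scale against 0.10 in the Bcy1 experiment, and 2 and 1 of 30 ratios changed, beside 9.68% and 16.1% of the other pairs. RPL9 was the pair that passed in both strains (-4.04 ± 1.10 and -6.28 ± 1.10). RPL9A was at 23.5 and 41.6 TPM at 24 h against 2220 and 2339 TPM at 2 h in haploid cells and at 24.4 and 0 against 2119 and 2040 TPM in diploid-labelled cells. RPL9B was at 47.1 and 167 TPM against 392 and 378 TPM, and at 96.3 and 107 TPM against 598 and 493 TPM. B was thus the higher copy in each of the 4 libraries at 24 h and A in each of the 4 at 2 h. RPL1 also passed in haploid cells (-1.8 ± 0.60), and with a library left out the calls of RPL9 and RPL1 in haploid cells were each kept in 1 of 4 fits.

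Rapamycin, which inhibits TORC1, gave the largest fall among the comparisons with replicates: between 0 and 2 h (n = 2 against 2) 30 of 30 totals fell in haploid cells and 29 of 30 in diploid-labelled cells, with medians of -4.54 (23.3-fold) and -4.35 (20.3-fold). The median gene was at 0.73 and 0.70, and 8.15% and 7.35% of genes were called lower. RPL33 (-8.32 ± 2.26, with 3 of its 4 values at 2 h at 0), RPL27 (-6.42 ± 0.25) and RPL34 (-5.95 ± 0.60) moved most in haploid cells and RPL11 (-3.62 ± 0.32), which binds the 5S rRNA, RPL4 (-3.57 ± 0.24) and RPL15 (-3.28 ± 0.23) least. In diploid-labelled cells RPL31 (-6.26 ± 0.75), RPL22 (-5.61 ± 0.81) and RPL18 (-5.20 ± 0.32) moved most, all 3 with values at 0, and RPL11 (-3.55 ± 0.32), RPL15 (-3.22 ± 0.23) and RPL4 (-3.09 ± 0.24) least, so that the same 3 pairs closed the order in both strains. The change differed between the strains for 1 total, RPL27 (interaction 2.49 ± 0.35, adjusted p = 0.0017, with the dose in doubt as above), beside 0.162% of genes higher and 0.486% lower. RPL27A was at 25.1 and 23.6 TPM at 2 h in haploid cells and at 234 and 210 TPM in diploid-labelled cells, from 2370 to 3344 TPM at 0 h in all 4. RPL27B was listed at the same 25.1 and 23.6 TPM in haploid cells, so the difference rests on low values that may stand for few reads. A difference of the change passed for 0 of 30 ratios (limma; 3 of 30 at an unadjusted p under 0.05).

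RPL15B (YMR121C), the minor partner of RPL15A (YLR029C), was at higher values after rapamycin but passed the copy test in diploid-labelled cells alone (adjusted p = 0.0126, and 0.305 in haploid cells), a difference between strains that was not tested for the copy. Of the 60 copies 0 and 1 were called higher, beside 27.0% and 25.1% of genes. It was at 18.9 and 55.8 TPM at 0 h and at 88.0 and 116 TPM at 2 h in haploid cells, and at 38.4 and 0 TPM against 88.6 and 107 TPM in diploid-labelled cells. RPL15A went from 3844 and 4075 TPM to 264 and 365 TPM, and from 3724 and 3956 TPM to 443 and 213 TPM. In both strains all values of B at 2 h lay above those at 0 h and all values of A below, as with 2 libraries per group 65.1% and 65.4% of genes had libraries apart, and the ratio changed by -5.27 ± 1.19 (adjusted p = 0.0026) and -7.61 ± 1.19, the latter with a 0 at 0 h. RPL15 passed in each of the 4 fits with a library left out in both strains. In all, 6 and 4 of 30 ratios changed, beside 35.5% and 29.0% of the other pairs, and of these 3 and 2 had no value at 0. RPL26 (4.93 ± 1.13), RPL12 (-4.61 ± 1.03), a protein of the stalk base, and RPL34 (3.04 ± 0.92) each held 1 value at 0 in haploid cells, RPL21 changed in both strains (-2.28 ± 0.53 and -2.06 ± 0.53) and RPL13 (1.2 ± 0.43) in haploid cells, and RPL31 (4.39 ± 1.42, with B at 0 in both treated libraries) and RPL37 (-1.9 ± 0.69) in diploid-labelled cells. RPL13 and RPL37 kept their call in none of the 4 fits with a library left out, and RPL34 and RPL31 in 1 of 4. The copies of RPL13 were listed at identical values in each haploid library at 2 h, 32.9 and 92.7 TPM.

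In the Bcy1 experiment, whose libraries hold no value at 0 for any copy, the arrests were compared with the libraries labelled WT over 4 and 6 h together (n = 4 against 4), and the 3 comparisons share the same WT libraries. The totals fell in 29 of 30 pairs in cdc28-13 (median -0.52, 1.43-fold), in 29 of 30 in cdc20-1 (-1.23, 2.34-fold) and in 24 of 30 in cdc15-2 (-0.37, 1.3-fold), beside 19.7%, 18.7% and 9.98% of genes called lower and medians of 0.10, 0.16 and 0.17 over all genes. RPL20 (-0.69 ± 0.08), RPL21 (-0.68 ± 0.10) and RPL12 (-0.67 ± 0.09) moved most in cdc28-13, and RPL37 (-0.34 ± 0.11), RPL33 (-0.29 ± 0.09) and RPL42 (-0.27 ± 0.14, adjusted p = 0.103) least. In cdc20-1 RPL21 (-1.39 ± 0.10), RPL20 (-1.37 ± 0.08) and RPL6 (-1.36 ± 0.09) moved most and RPL24 (-0.62 ± 0.08), RPL7 (-0.61 ± 0.11) and RPL11 (-0.20 ± 0.09, adjusted p = 0.0559) least. In cdc15-2 they were RPL11 (-0.56 ± 0.09), RPL6 (-0.55 ± 0.09) and RPL22 (-0.53 ± 0.10) at one end and RPL15 (-0.28 ± 0.11), RPL37 (-0.27 ± 0.11) and RPL18 (-0.27 ± 0.14) at the other, and RPL2, RPL14, RPL18, RPL36, RPL37 and RPL42 did not pass. Without any 1 of the 8 libraries compared, 24 to 30, 29 to 30 and 18 to 28 totals passed.

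**Figure D3:**
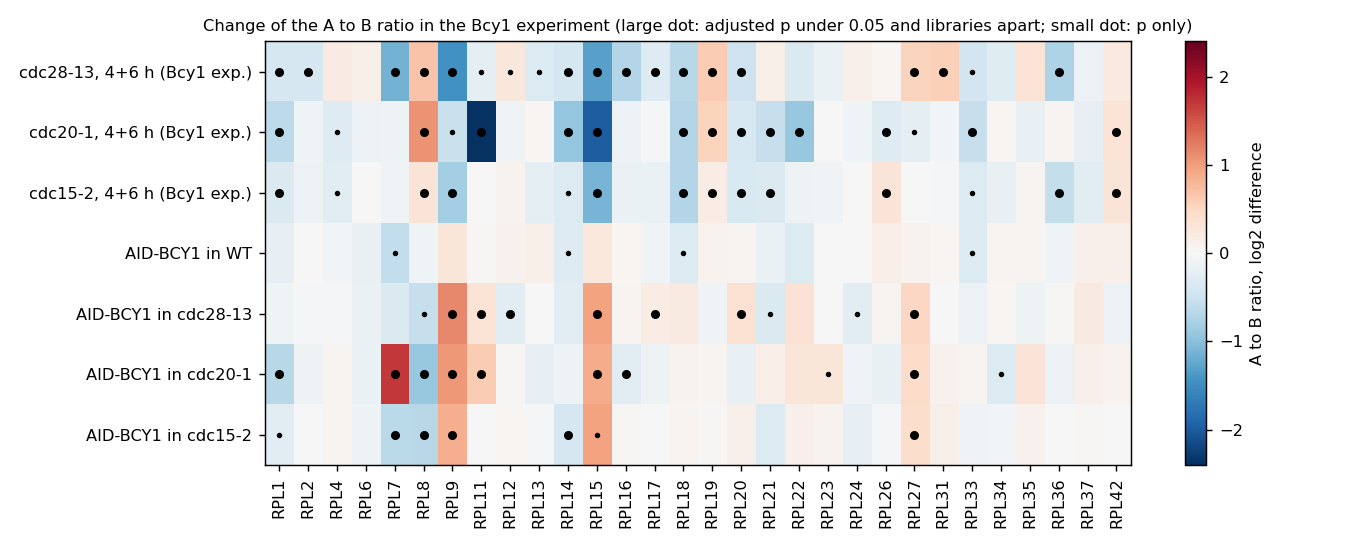
Log2 difference of the A to B ratio (colour) for the 30 pairs (columns) in the 7 comparisons of the Bcy1 experiment (rows); large dots mark adjusted p under 0.05 with libraries of the groups apart, small dots adjusted p alone. The columns of RPL9 and RPL15 are blue in the 3 arrests and red where AID-BCY1 is present in an arrested background, and RPL8 has the opposite colours. The same parent libraries enter both kinds of row.

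The copies did not fall alike in many of the 30 pairs, nor in many of the 31 other pairs. The ratio changed in 19 of 30 pairs in cdc28-13, 16 in cdc20-1 and 14 in cdc15-2, with the libraries of the groups apart in 15, 13 and 11 of them, where 30.8%, 41.2% and 27.8% of genes had libraries apart. The other 31 pairs, mostly of the small subunit, had changed ratios in 64.5%, 67.7% and 38.7% of cases. Both copies passed as lower in 17, 27 and 13 of 30 pairs. With the culture as a random effect, since libraries at 4 and 6 h may share one, 19, 15 and 11 ratios and 29, 29 and 22 totals passed. The median absolute change of ratio over the 30 pairs was 0.37, 0.26 and 0.20.

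RPL9 and RPL15 had lower ratios in all 3 arrests. RPL9A was at 1480, 1757, 1636 and 1665 TPM in the 4 libraries labelled WT (the first pair at 4 h, the second at 6 h), at 905, 1148, 491 and 521 TPM in cdc28-13, at 612, 560, 655 and 997 TPM in cdc20-1 and at 1060, 1269, 628 and 901 TPM in cdc15-2. RPL9B was at 546, 694, 562 and 679 TPM in WT, at 651, 830, 731 and 768 TPM in cdc28-13, at 396, 377, 375 and 354 TPM in cdc20-1 and at 620, 625, 547 and 721 TPM in cdc15-2. RPL9A was below WT with no overlap in each arrest, whereas RPL9B overlapped WT in cdc28-13 and cdc15-2 and lay below it in cdc20-1. The ratio changed by -1.45 ± 0.13, -0.53 ± 0.13 and -0.82 ± 0.13 (adjusted p of 4.95e-10, 0.00102 and 1.1e-05), with overlapping libraries in cdc20-1, and the A share was 72.5 ± 1.5% in WT, 49.2 ± 10.3% in cdc28-13, 64.5 ± 6.4% in cdc20-1 and 59.8 ± 6.4% in cdc15-2. In cdc28-13 the share was 58.2 and 58.0% at 4 h and 40.2 and 40.4% at 6 h.

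RPL15B was higher in the 3 arrests of the Bcy1 experiment (copy test, adjusted p of 0.00064, 0.00023 and 9.8e-05). In cdc28-13, cdc20-1 and cdc15-2, 2 of the 60 copies each were called higher, RPL15B and in turn RPL7B, RPL11B and RPL18B, beside 30.4%, 34.8% and 29.3% of genes. RPL15B was at 55.8, 49.1, 37.2 and 56.0 TPM in WT, at 68.5, 84.5, 65.5 and 93.6 TPM in cdc28-13, at 75.1, 68.0, 95.2 and 83.7 TPM in cdc20-1 and at 80.4, 59.0, 106 and 106 TPM in cdc15-2, above each WT library in all 12. In the separate cdc28-13 experiment RPL15B was listed at 0, 30.9 and 0 TPM after 8 h and at 0 in all 3 arrested libraries after 9 h, beside 49.7, 0 and 70.0 TPM and 50.6, 77.2 and 13.9 TPM in WT. A 0 in values without read counts can be a failed estimate, so no direction is read from these. RPL15A, again in the Bcy1 experiment, was at 2403, 2558, 2846 and 2501 TPM in WT, and at 1274 to 1925, 871 to 1286 and 1844 to 2482 TPM in the arrests, below WT except for 1 overlapping cdc15-2 library. The ratio changed by -1.3 ± 0.18 in cdc28-13, -1.97 ± 0.18 in cdc20-1 and -1.11 ± 0.18 in cdc15-2 (adjusted p of 9.5e-07, 2.9e-10 and 1.6e-05), and since A remained the major copy, the A share went from 98.1 ± 0.44% to 95.4 ± 1.5%, 93.0 ± 0.86% and 95.8 ± 1.5%. Every one of the 8 fits with a library left out kept the calls of RPL9 and RPL15 in the 3 arrests.

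RPL8 went the opposite way. RPL8A was at 692 to 829 TPM in WT and at 642 to 820, 528 to 717 and 584 to 761 TPM in the arrests, while RPL8B was at 2279 to 2543 TPM in WT and at 1232 to 1782, 864 to 1169 and 1383 to 2015 TPM. The groups overlapped for the minor copy in each arrest and were apart for the major copy. The ratio changed by 0.69 ± 0.12, 1.08 ± 0.12 and 0.32 ± 0.12 (adjusted p of 1.7e-05, 7.6e-09 and 0.0318), and the last call was kept in 3 of 8 fits with a library left out. RPL7 changed in cdc28-13 (-1.14 ± 0.14), where RPL7A was at 962 to 1568 TPM against 1986 to 2186 TPM and RPL7B at 624 to 809 TPM against 408 to 659 TPM, so that A was apart from WT and B overlapped it. RPL36 (-0.73 ± 0.10) and RPL16 (-0.71 ± 0.09) completed the 6 largest changes in cdc28-13. In cdc20-1 they included RPL14 (-0.92 ± 0.11), RPL22 (-0.90 ± 0.20) and RPL18 (-0.71 ± 0.12), and in cdc15-2 RPL18 (-0.70 ± 0.12), RPL36 (-0.56 ± 0.10), RPL20 (-0.37 ± 0.09) and RPL21 (-0.34 ± 0.13). RPL21 kept its call in cdc15-2 in 3 of 8 fits.

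**Figure D4:**
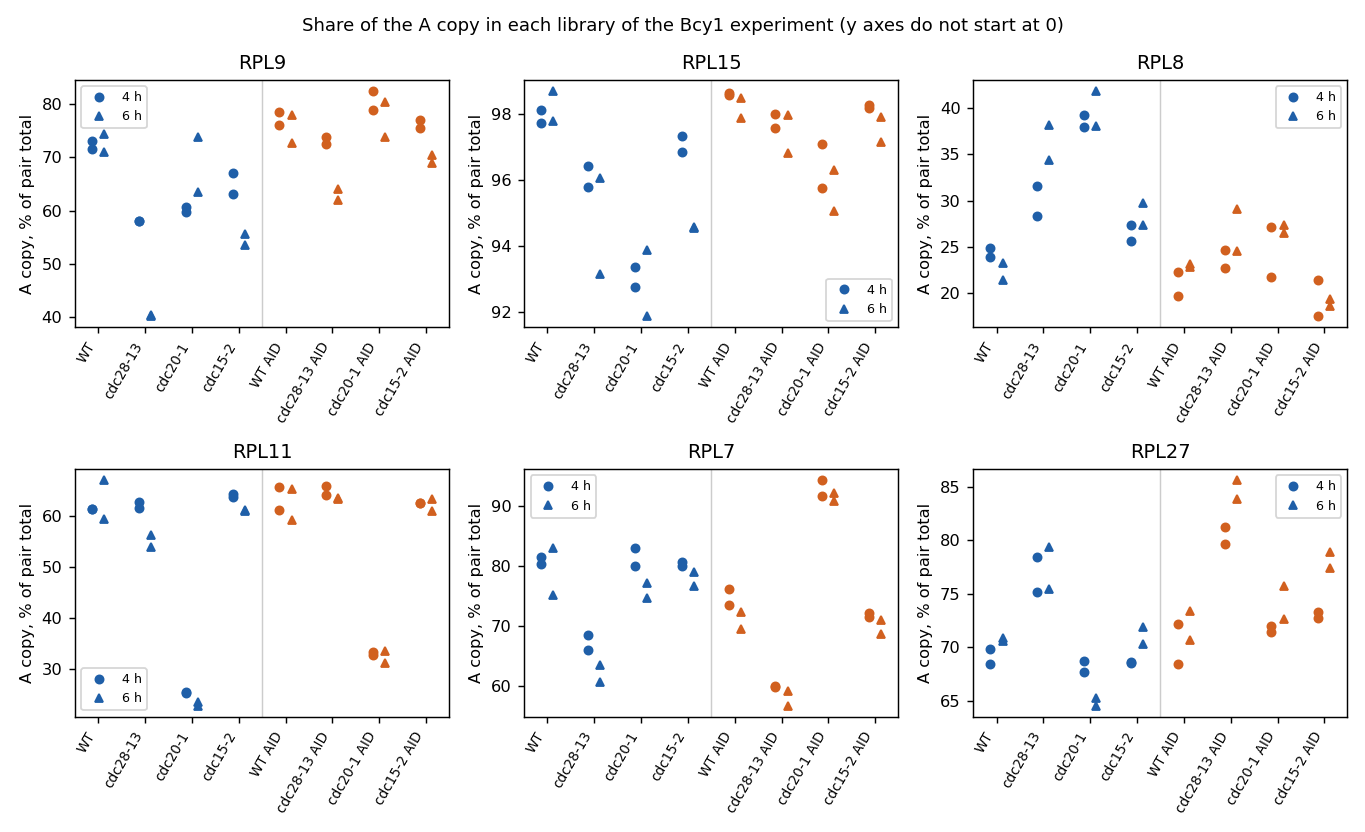
A copy as a percentage of the pair total (y axis, not starting at 0) for 6 pairs in each library of the Bcy1 experiment at 4 h (circles) and 6 h (triangles), by strain; blue points are parents and orange points AID-BCY1 strains. RPL11 stands near 24.2% in cdc20-1 and 32.6% in cdc20-1 AID-BCY1, and RPL7 near 92.3% in cdc20-1 AID-BCY1.

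RPL11 had the largest difference of ratio from WT among the 30 pairs in the 3 arrests of the Bcy1 experiment, in cdc20-1 (-2.37 ± 0.08, adjusted p = 9.4e-19), beside -0.21 in cdc28-13 and 0.01 in cdc15-2. RPL11A (YPR102C) was at 769, 776, 733 and 931 TPM in cdc20-1 against 2088, 2368, 2911 and 2173 TPM in WT, and RPL11B (YGR085C) at 2270, 2272, 2403 and 3162 TPM against 1315, 1496, 1434 and 1485 TPM. A was below WT and B above it with no overlap, the A share was 24.2 ± 1.4% against 62.3 ± 3.3%, and the total did not pass. The share was already 25.4 and 25.2% in cdc20-1 at 2 h, beside 62.15% in WT. In the separate cdc20-1 experiment it was 23.15% at 2 h, beside 57.9% in WT. No library was made before the shift, so a lasting strain difference and a change with the arrest cannot be told apart. RPL11B lies on chromosome VII, whose genes had a median difference of 0.99 in cdc20-1, while the medians of the 15 other chromosomes were between 0.07 and 0.18. The 7 member copies on chromosome VII (RPL1B, RPL7A, RPL9A, RPL11B, RPL24A, RPL24B and RPL26B) had a median of -0.63 (range -1.24 to 0.81) and the 53 copies elsewhere one of -1.26 (-1.64 to 0.70). The 6 totals with a copy there were at -1.07 to -0.20 and the 24 others at -1.39 to -0.99. In the comparison of cdc20-1_AID-BCY1 with cdc20-1 the chromosome median was -0.03, and RPL11 was at an A share of 32.6 ± 1.1% in cdc20-1_AID-BCY1. The part of chromosome VII in the cdc20-1 values was not tested.

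**Figure D5:**
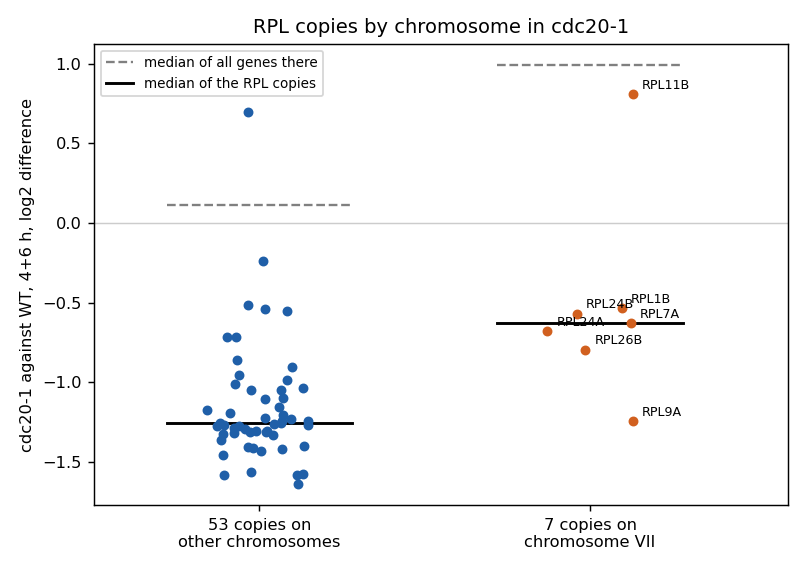
Log2 difference between cdc20-1 and the libraries labelled WT over 4 and 6 h (y axis) for the 53 RPL copies on other chromosomes and the 7 on chromosome VII (points, with their medians in black), beside the median of all genes there (dashed; for the other chromosomes the median of their medians, 0.11). The chromosome VII copies have a median of -0.63 and the others one of -1.26; the blue point above 0 is RPL15B.

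With AID-BCY1 in the arrested strains the totals stood higher than in their parents, again over 4 and 6 h (n = 4 against 4). In cdc28-13 30 of 30 totals were higher (median 0.52, 1.44-fold), in cdc20-1 29 of 30 (0.66, 1.58-fold) and in cdc15-2 30 of 30 (0.56, 1.47-fold), beside 9.54%, 12.1% and 11.6% of genes called higher and medians of -0.11, -0.08 and -0.09 over all genes. In the WT background 0 of 30 passed (limma; median 0.13, from -0.03 for RPL36 to 0.29 for RPL15), 4 of 30 at an unadjusted p under 0.05, beside 9.36% of genes called higher. The parents also serve in the arrest comparisons, and in cdc20-1 and cdc15-2 parent and AID-BCY1 strain were of opposite mating type by their mRNAs. RPL31 (0.63 ± 0.11), RPL33 (0.61 ± 0.09) and RPL14 (0.59 ± 0.14) moved most in cdc28-13 and RPL9 (0.45 ± 0.13), RPL27 (0.44 ± 0.09) and RPL37 (0.42 ± 0.11) least. In cdc20-1 they were RPL24 (1.04 ± 0.08), RPL1 (0.92 ± 0.12) and RPL26 (0.92 ± 0.11) against RPL4 (0.45 ± 0.10), RPL8 (0.40 ± 0.09) and RPL11 (0.07 ± 0.09, adjusted p = 0.602), and in cdc15-2 RPL22 (0.68 ± 0.10), RPL33 (0.67 ± 0.09) and RPL6 (0.64 ± 0.09) against RPL13 (0.49 ± 0.09), RPL16 (0.46 ± 0.09) and RPL4 (0.44 ± 0.10). The rise was larger than that in WT by an interaction test for 6, 21 and 17 of 30 totals in the 3 backgrounds, beside 1.35%, 4.17% and 2.06% of genes, and for 1, 13 and 5 totals when the library series was not a term of the fit.

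The ratios of RPL9, RPL15 and RPL8 moved against the direction of the arrests in the 3 backgrounds. These pairs were named after their values were seen. The same parent libraries enter both comparisons, so opposite signs are in part built in. RPL7 in cdc28-13 (-0.35 ± 0.14, adjusted p = 0.0565) had the sign of the arrest, and RPL36 and RPL16 there stood at 0.03 and 0.07. The RPL11 ratio was also higher in cdc20-1_AID-BCY1 than in cdc20-1, but a difference was present at 2 h, before auxin. At that time the A share was 35.1 and 33.9% in cdc20-1_AID-BCY1 and 25.4 and 25.2% in cdc20-1. RPL9A was at 1561, 1834, 1078 and 1162 TPM in cdc28-13_AID-BCY1 against 905, 1148, 491 and 521 TPM in its parent, at 1265, 1179, 1068 and 1235 TPM in cdc20-1_AID-BCY1 against 612, 560, 655 and 997 TPM, and at 1761, 1867, 1324 and 1536 TPM in cdc15-2_AID-BCY1 against 1060, 1269, 628 and 901 TPM. Its libraries were apart from the parent in cdc20-1 and cdc15-2 and overlapped in cdc28-13, while RPL9B stood at 590.1 to 661, 268 to 377 and 556 to 643 TPM and overlapped its parent in each. The RPL9 ratio was higher by 1.16 ± 0.13, 1.04 ± 0.13 and 0.87 ± 0.13, each with the libraries of the groups apart, and by more than in WT (interaction 0.86 ± 0.18, 0.75 ± 0.18 and 0.57 ± 0.18, adjusted p of 0.0047, 0.0075 and 0.0407). That difference passed for 3, 5 and 2 of the 30 ratios, beside 3.23%, 12.9% and 3.23% of the other pairs. It passed for RPL8 in cdc20-1 and cdc15-2 but not in cdc28-13, and for RPL15 in none of the 3 backgrounds. Without the library series as a term it passed for 1, 4 and 1 ratios, and RPL9 missed the threshold in cdc15-2 (adjusted p = 0.0599). RPL15 was higher by 0.96 ± 0.18, 0.90 ± 0.18 and 0.97 ± 0.18, the last with overlapping libraries, and RPL8 lower by 0.55 ± 0.12 on the log2 scale with overlap, 0.90 ± 0.12 and 0.67 ± 0.12. RPL8B was at 2092 to 2718, 1511 to 1690 and 2677 to 2918 TPM, while RPL8A was at 722 to 859, 472 to 590 and 621 to 777 TPM. In all, 10, 10 and 7 of 30 ratios changed in the 3 backgrounds and 4 in WT, beside 25.8%, 38.7%, 22.6% and 22.6% of the other pairs, with libraries apart in 7, 8, 5 and 0, where 21.3%, 27.1%, 31.6% and 16.6% of genes had them.

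RPL7 and RPL27 also changed. RPL7B was at 139, 201, 182 and 243 TPM in cdc20-1_AID-BCY1 against 313, 229, 419 and 519 TPM in cdc20-1, with the lowest parent library inside the range, whereas it was at 732 to 856 TPM in WT_AID-BCY1, 1074 to 1272 TPM in cdc28-13_AID-BCY1 and 774 to 892 TPM in cdc15-2_AID-BCY1. The RPL7 ratio was thus higher by 1.70 ± 0.14 in cdc20-1 and lower in cdc15-2 (-0.64 ± 0.14) and in WT (-0.58 ± 0.14, with overlap), and the interaction of the cdc20-1 background with WT was the largest of the 30 pairs (2.29 ± 0.20, adjusted p = 6e-09). RPL27A rose with AID-BCY1 in the 3 arrested backgrounds (0.54 ± 0.09, 0.79 ± 0.09 and 0.68 ± 0.09), RPL27B was at 0.04, 0.35 ± 0.10 and 0.25 and passed in cdc20-1, with no test between the arrested backgrounds, and the ratios were higher by 0.50 ± 0.09, 0.44 ± 0.09 and 0.43 ± 0.09. The 6 largest changed ratios with libraries apart also included RPL20 (0.36 ± 0.09), RPL11 (0.33 ± 0.08) and RPL12 (-0.26 ± 0.09) in cdc28-13, RPL1 (-0.66 ± 0.09) and RPL11 (0.60 ± 0.08) in cdc20-1, and RPL14 (-0.41 ± 0.11) in cdc15-2. RPL12 kept its call in 4 of 8 fits with a library left out.

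The experiments with 1 library per group carry no replicate check, and their values describe those libraries. In the cdc20-1 experiment the strains compared were also of opposite mating type by their mRNAs. At 9 h the median total of the 30 pairs was -1.81 in cdc20-1, -1.07 in cdc15-2 and -1.14 with alpha factor on the log2 scale, with 29, 23 and 26 of 30 totals below -1, beside 6.48%, 6.27% and 5.1% of genes, and all 30 below 0 in each. At the time compared before, the medians were -1.72 (6 h), -1.01 (8 h) and -0.42 (8 h), with 29, 16 and 3 totals below -1. The alpha factor value at 9 h thus departed more from the earlier one than those of cdc20-1 and cdc15-2 did. RPL9A was at 299.8 TPM in cdc20-1 and 1656 in its WT, at 369 and 1664 TPM in cdc15-2 and WT, and at 487 and 2130 TPM with alpha factor and DMSO; RPL9B was at 353 and 889, 501 and 852, and 369 and 609 TPM. RPL15B was at 116 and 60.9, 130 and 57.9, and 84.9 and 67.8 TPM. RPL9 and RPL15 had lower A to B ratios in these arrests by -1.13, -1.41 and -1.41 and by -2.91, -2.39 and -1.77, and RPL11 was at an A share of 21.3% in cdc20-1 and 56.9% in WT, against 56.6 and 57.2% in cdc15-2 and its WT. The RPL8 ratio was higher by 0.82, 0.26 and 0.50. Among prototrophic cells arrested for 8 h in cdc28-13 all 30 totals were higher than in auxotrophic cells (median 0.63, 0.01 for RPL4 to 1.22 for RPL31), with 1 above 1, beside 2.27% of genes, and the A shares of RPL9 were 32.5% and 27.4%.

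The remaining large-subunit genes were read beside the pairs. Of the 11 genes with no duplicate, 11 and 10 fell in cdc28-13 at 8 and 9 h (medians -2.45 and -2.66), 9 and 10 in stationary phase in the haploid and diploid-labelled cells, and 10 in each rapamycin comparison. RPL39 (-3.41), a protein of the exit tunnel, RPP0 (-3.19), the scaffold of the stalk, and RPL25 (-3.00), the docking site for the signal recognition particle at the tunnel exit, moved most at 9 h, and RPL28 did not pass (-2.22, adjusted p = 0.27). In the Bcy1 experiment 5, 11 and 3 of the 11 fell in cdc28-13, cdc20-1 and cdc15-2 (medians -0.27, -0.99 and -0.21, against -0.52, -1.23 and -0.37 for the pairs), and 1, 10, 11 and 11 rose with AID-BCY1 in WT and the 3 arrested backgrounds. Of 11 regulators of these genes, 6 fell and 0 rose at 8 h and 4 fell and 1 rose at 9 h, beside 21.8% of genes lower at 8 h and 19.1% lower and 17.1% higher at 9 h, among them ABF1 (-2.27), RAP1 (-1.95) and TOD6 (-1.95), a repressor of ribosome biogenesis genes. Of 12 genes for chaperones and modifying enzymes of large-subunit proteins, 7 fell at 8 h and 4 at 9 h, led at 9 h by RRB1 (-2.18), the chaperone of Rpl3, SYO1 (-2.16), which escorts Rpl5 and Rpl11, and BCP1 (-2.14), the chaperone of Rpl23. With AID-BCY1 in the 3 arrested backgrounds the regulators showed 0, 1 and 1 rising and 3 falling in each, and the chaperones 0, 3 and 1 rising and 0, 0 and 1 falling, beside 9.54%, 12.1% and 11.6% of genes higher and 25.1%, 22.4% and 27.5% lower.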

How the data were processed

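159 RNA-seq libraries of W303 strains were read from a table of 7130 rows. Per the labels and the submitters' processing notes, the authors aligned reads to sacCer3 with STAR 2.5.3a and estimated TPM with RSEM 1.3.0, which divides reads that match both copies of a pair, and deposited log2(TPM + 1) values. Per the study's methods, RNA was enriched for mRNA except in the cdc28-13, stationary phase and rapamycin experiments; the labels instead give total RNA for the alpha factor and Bcy1 libraries as well, and the methods were followed here. TPM keeps no read depth, so depth is unknown and no counting interval is given. Values were turned back into TPM, the 6675 nuclear frames outside the ribosomal DNA (10 frames inside it were left out) were rescaled to 1000000, and tests ran on log2(value + 1), so that fold changes of low genes are understated. This scale was chosen because the ribosomal DNA frames dominate 3 experiments. A pair's ratio does not depend on the scaling apart from the pseudocount.

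In each experiment with replicates, limma 3.58.1 (R 4.3.3, eBayes with trend) was fitted across all groups to genes with a mean log2 value of at least 1, together with a total and a ratio for each of the 61 A/B pairs; the Bcy1 fit had the library series as a covariate, and p-values were adjusted by the Benjamini-Hochberg method over all rows, with a threshold of 0.05. Errors are SE for fitted differences and SD for levels and shares. The fits were tested on simulated data. Single-library comparisons had no test. Sequences and annotation came from RefSeq through Biopython 1.88, and tables and figures were made with Python 3.11.15, pandas 2.3.3, numpy 2.4.6 and matplotlib 3.10.9.

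The members and the lists were chosen with earlier results of these data known. Named were the 3 totals that moved most and the 3 that moved least in each comparison, up to 6 changed ratios by size whose libraries did not overlap, RPL22, RPL36, RPL1, RPL4 and RPL7 in the cdc28-13 experiment, and up to 3 examples of a list at 9 h; RPL27, RPL33 and the copies followed across experiments were otherwise named after their values were seen. Replicate numbers in the cdc28-13, stationary phase and rapamycin experiments paired no samples (correlation of deviations from -0.06 to 0.07). In the Bcy1 experiment libraries of the same series deviated together (median correlation 0.21), and the covariate takes up a shift shared by a series. With it in the fit, libraries of the same strain and series still had an estimated correlation of 0.194. The main fit does not model that correlation, unlike the fit with culture as a random effect. The alternatives were the deposited scale, the frames of the ribosomal DNA included, centring on the median, another pseudocount of 0.1, other filters, other sample sets and covariates, a replicate block and leaving out each library; a random effect for culture and leaving out pairs with a value at 0 were added after seeing the data.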

Additional observations from a re-analysis of the deposited data

Results flagged for a closer look

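The fall after 2 h of rapamycin differed between haploid and diploid-labelled cells for 1 of the 30 pair totals, RPL27, by 2.49 on the log2 scale (limma interaction, diploid-labelled minus haploid). The labels give both strains the same dose and the study's supplement a lower one for the diploid, so strain and dose cannot be told apart. The copies of RPL27 were listed at identical values in each of the haploid libraries at 2 h.

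The difference between AID-BCY1 strain and parent was larger in cdc28-13 than in WT for 6 of 30 totals, of which RPL31 moved most (0.56), and for the ratios of RPL9 (0.86), RPL18 (0.54) and RPL27 (0.41). In cdc20-1 it was larger than in WT for 21 totals, with RPL24 at 0.87, and the ratio differed for RPL7 (2.29), RPL8 (-0.79), RPL9 (0.75), RPL11 (0.56) and RPL1 (-0.47). In cdc15-2 it was larger for 17 totals, with RPL36 at 0.65, and the ratio differed for RPL9 (0.57) and RPL8 (-0.56). RPL9 was thus the pair whose ratio differed in all 3 backgrounds, but without the library series as a term it missed the threshold in cdc15-2 (adjusted p = 0.0599). RPL11 stood apart at 2 h, before auxin, with A shares of 35.1 and 33.9% in cdc20-1_AID-BCY1 and 25.4 and 25.2% in cdc20-1. In cdc20-1 and cdc15-2 the parent and the AID-BCY1 strain were of opposite mating type by their mRNAs, and the part of mating type in these differences was not tested. The WT libraries enter all 3 interactions. No group held the 4 to 10 libraries that a check for single outlying libraries needs.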

How the results depend on the processing

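Of 267 alternative values, 243 stayed within 1.5 times the count or within the replicate spread, and of 180 with a library left out 161 did; the direction of the median pair total was kept in all of them. On the deposited scale, 1 ratio changed in cdc28-13 at 2 h, 16 at 8 h, 6 in haploid and 4 in diploid-labelled stationary cells, and the single-library medians at 9 h were -1.97 (cdc20-1), -1.4 (cdc15-2) and -1.35 (alpha factor); with the ribosomal DNA frames included the cdc15-2 median was -1.4. On the deposited scale 385 genes were higher and 2413 lower in cdc28-13 at 8 h, instead of 1094 and 1365, and the median pair total was -3.73. Centring each library on its median moved the median of all genes to 0.04 in haploid rapamycin cells (930 genes higher and 805 lower, instead of 1664 and 503), to -0.07 in cdc15-2 (1126 and 1489, instead of 1776 and 606) and to 0.09 for AID-BCY1 in cdc28-13 (1410 and 1045, instead of 579 and 1523). The median pair totals there became -5.24, -0.62 and 0.71, and no total that passed under centring changed direction in any comparison. A pseudocount of 0.1 gave 1 changed ratio in haploid stationary cells. With only the groups compared in the fit, the ratios changed were 4 and 7 in cdc28-13 at 8 and 9 h, 0 in diploid-labelled stationary cells, 3 in haploid rapamycin cells and 2 for AID-BCY1 in WT. Without the series covariate the WT count was 2, and the interactions of AID-BCY1 with background gave 1 total and 1 ratio in cdc28-13, 13 totals in cdc20-1, and 5 totals and 1 ratio in cdc15-2. With culture as a random effect the WT count was 2. Without pairs holding a 0 the ratios changed were 0 in diploid-labelled stationary cells and 3 and 2 with rapamycin. With a library left out, the changed ratios ranged from 7 to 14 in cdc28-13 at 9 h (7 without WT replicate 2), 0 to 2 in haploid stationary cells (0 without either 2 h library), 1 to 8 in diploid-labelled ones (8 without 24 h replicate 1, 5 without replicate 2), 2 to 7 in diploid-labelled rapamycin cells (7 without 2 h replicate 2, 2 without each other library), 8 to 14 in cdc15-2 (8 without its 4 h replicate 1) and 1 to 4 for AID-BCY1 in WT (1 without WT 6 h replicate 1), where 0 to 1 totals passed. The causes were not tested. The replicate block moved none of 18 counts by over 1.5 times in experiments whose numbers pair no samples. The depth is unknown, which limits what can be read from copies listed at 0 or at the lowest values.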
